A study of Arabidopsis thaliana with 18 samples.

Results

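AT1G47400 encodes IMA1, also named FEP3, a short peptide of the IRON MAN family in Arabidopsis thaliana. On these arrays it is represented by 1 probe set of 22810 in all. That probe set was picked by its gene, with earlier results on its signal over these arrays known, so its own course is described here without a test. Transcripts were measured in pools of 15 full rosettes of wild-type Col-0 plants aged 5 to 6 weeks, at 0, 4, 8, 12, 16 and 20 h. Each time has 3 arrays, 1 from each of 3 separately grown courses, called A, B and C after their replicate letters. No genotype, agent or treatment other than the time of harvest distinguishes the groups. The labels give no hour for lights on or off, and all values are linear signal intensities, as scaled per array by the authors.

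IRON MAN peptides are signals of iron need. They bind iron and the ubiquitin ligase BTS through a conserved, aspartate-rich C-terminal end. By occupying BTS they protect members of bHLH subgroup IVc that BTS would otherwise mark for breakdown. This subgroup holds bHLH34, bHLH104, ILR3 and bHLH115. These factors, with bHLH121, switch on the genes of the iron deficiency response, among them the subgroup Ib factors such as bHLH101, the regulator PYE and the peptide genes themselves. In leaves the peptide genes are known to be active in the vascular tissue, and the peptides take part in signalling from shoot to root.

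Before the values of AT1G47400 are given, the arrays of course B have to be described. Over the 22746 non-control probe sets, the array labelled 4 h B correlated most with the 16 h arrays of courses A and C (mean r = 0.963, against 0.945 with their 4 h arrays), and that labelled 16 h B most with their 4 h arrays (0.967, against 0.946 with 16 h). The array labelled 8 h B correlated most with the 12 h arrays of A and C (0.966, against 0.957 with 8 h), and that labelled 12 h B most with their 8 h arrays (0.966, against 0.959 with 12 h). The 0 h and 20 h arrays of course B correlated most with their own times (0.971 and 0.960). Between A and C, each array was closest to the other course's array with the same label. The labelled times were kept, and results are given with all arrays, without the 4 h and 16 h arrays of course B (16 arrays), and without its 4, 8, 12 and 16 h arrays (14 arrays, a choice made after seeing these correlations). Course C also differed in a control ratio read as a sign of RNA quality, of which no direct measure was used. For the ubiquitin control probe sets, the signal at the 3' end divided by that at the 5' end lay between 2.73 and 4.39 in course C, against 1.61 to 1.82 in course A and 1.52 to 1.80 in course B. Of the markers of leaf, root, flower and phloem, 1 of 4, 2 of 3, 0 of 3 and 0 of 3 had a named probe set. The leaf marker RCA, Rubisco activase, read between 2817 and 7780, and the root markers PYK10 and EXPA7 read between 127.4 and 266.1 and between 1.7 and 19.2.

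In course A, AT1G47400 had signals of 46.4, 30.1, 30.9, 97.4, 148.5 and 97.5 at 0, 4, 8, 12, 16 and 20 h. It was low at 4 and 8 h, highest at 16 h, and 4.93 times as high at its maximum as at its minimum. In course C the signals were 82.0, 19.6, 25.6, 86.1, 271.5 and 179.9 at the same times. The order was much the same, with the minimum at 4 h, the maximum at 16 h and a 13.9-fold difference between them. The maximum of course C fell on the array with the highest ubiquitin 3'/5' ratio of all (4.39), and its next highest signal on the array with the next highest ratio (3.51, at 20 h). In course A, too, the maximum fell on the array with that course's highest ratio (1.82, at 16 h) and the minimum on that with its lowest (1.61, at 4 h), over a narrower range of ratios. In course B the array with the highest ratio (1.80, at 12 h) had the lowest signal. The part of RNA quality in these levels was not tested.

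Course B ran differently. Its signals were 65.4, 142.4, 79.6, 22.0, 25.5 and 136.5 at the 6 times, so that it was highest at 4 h and lowest at 12 h, with a 6.47-fold difference. At 0 h and 20 h course B lay within the range of the other courses, but at each of the 4 times between, it lay outside that range. At 4 and 8 h it was the highest of the 3 courses, and at 12 and 16 h the lowest. Read by the whole-array correlations above, the values labelled 4, 8, 12 and 16 h in course B (142.4, 79.6, 22.0 and 25.5) stand beside the 16, 12, 8 and 4 h values of course A (148.5, 97.4, 30.9 and 30.1) and of course C (271.5, 86.1, 25.6 and 19.6). The value of 142.4 was near that of course A and well below that of course C. Across the 6 times, the log2 values correlated with r = 0.94 between courses A and C, -0.62 between A and B and -0.47 between B and C (6 points each). For comparison, the 1486 probe sets called as changing over the day had median correlations of 0.94, 0.76 and 0.75 for the same pairs of courses, but that group was defined by agreement between arrays of a time. Over all 22746 probe sets the medians were 0.45, 0.10 and 0.13.

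**Figure D1:**
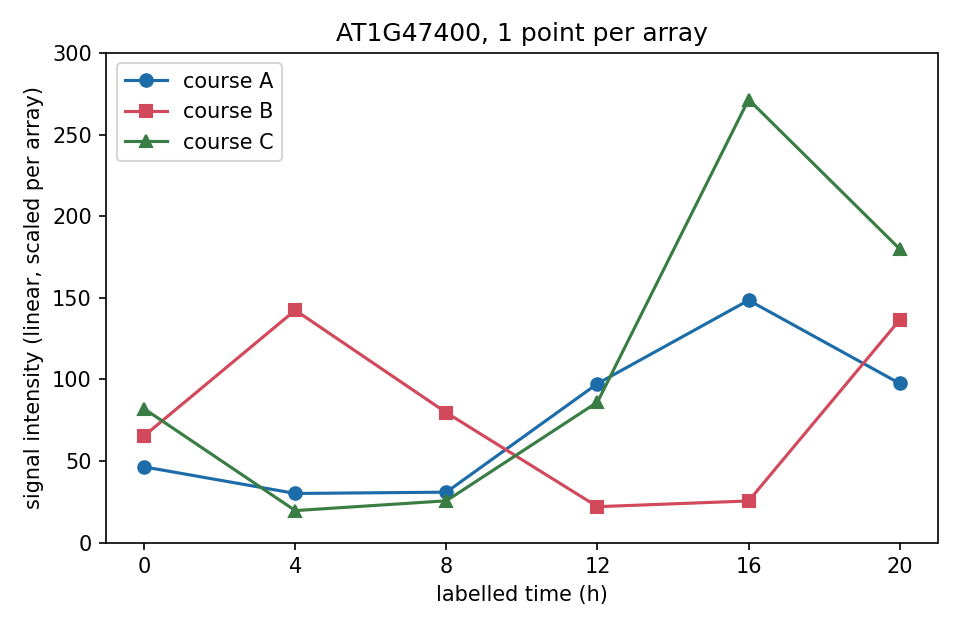
Signal intensity of AT1G47400 (linear scale, vertical axis) against labelled time in hours, with 1 point per array and a line per course. Courses A and C peak at 16 h (148.5 and 271.5), while course B has 142.4 at 4 h and 25.5 at 16 h.

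Averaged over the courses, the mean signals were 64.6 ± 17.8 at 0 h, 64.0 ± 68.1 at 4 h, 45.4 ± 29.8 at 8 h, 68.5 ± 40.7 at 12 h, 148.5 ± 123 at 16 h and 138.0 ± 41.2 at 20 h (SD, n = 3 arrays each). The SD was largest relative to the mean at 4 and 16 h, where course B and the other courses lie on opposite sides. On the log2(signal + 1.1) scale, which weights the courses by fold, the order of the mean levels was 20 h (7.08), 16 h (6.68), 0 h (6.00), 12 h (5.87), 4 h (5.50) and 8 h (5.36). The linear means place 16 h before 20 h and 12 h before 0 h. No neighbours in the log2 order differed beyond their spread, since the arrays of each time overlapped those of the next.

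The highest log2 mean exceeded the lowest, 20 h against 8 h, by 1.72, where the SD of arrays within a time was 1.13. At 20 h the signals were 97.5, 136.5 and 179.9 in the 3 courses, against 30.9, 79.6 and 25.6 at 8 h, and these groups did not overlap. The 20 h arrays also lay above all arrays of 0 h and of 12 h. These were 3 of the 15 pairs of times without overlap, where 13.9% of all such pairs over all probe sets had none, and nothing is read from this count because the gene was chosen with these levels known. In each course the log2 value was higher at 20 h than at 8 h, by 1.62 in A, 0.77 in B and 2.76 in C. Between 16 h and 4 h the differences were 2.26 in A, -2.43 in B and 3.72 in C. Between 12 h and 0 h they were 1.05 in A, -1.53 in B and 0.07 in C.

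Without the 4 h and 16 h arrays of course B, the order of the log2 means was 16 h (7.66), 20 h (7.08), 0 h (6.00), 12 h (5.87), 8 h (5.36) and 4 h (4.67). The mean signals of the shortened groups were then 210.0 ± 87.0 at 16 h and 24.9 ± 7.4 at 4 h (SD, n = 2 each). The difference between 16 h and 4 h was 2.99 on the log2 scale, against 1.18 with all arrays, and the SD within times was 0.74. Of the 15 pairs of times 9 did not overlap, against 24% of pairs over all probe sets, a share that is raised for every probe set by the smaller groups. The arrays of 16 h still overlapped those of 20 h, and those of 8 h overlapped those of 0 h and 4 h. The arrays of 12 h overlapped those of 0, 4 and 8 h. Without all 4 arrays, the mean at 8 h was 28.3 ± 3.7 and that at 12 h was 91.8 ± 8.0 (SD, n = 2 each), so that 4 and 8 h were low together and 12 h stood above 0 h (log2 means 6.53 and 6.00).

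**Figure D2:**
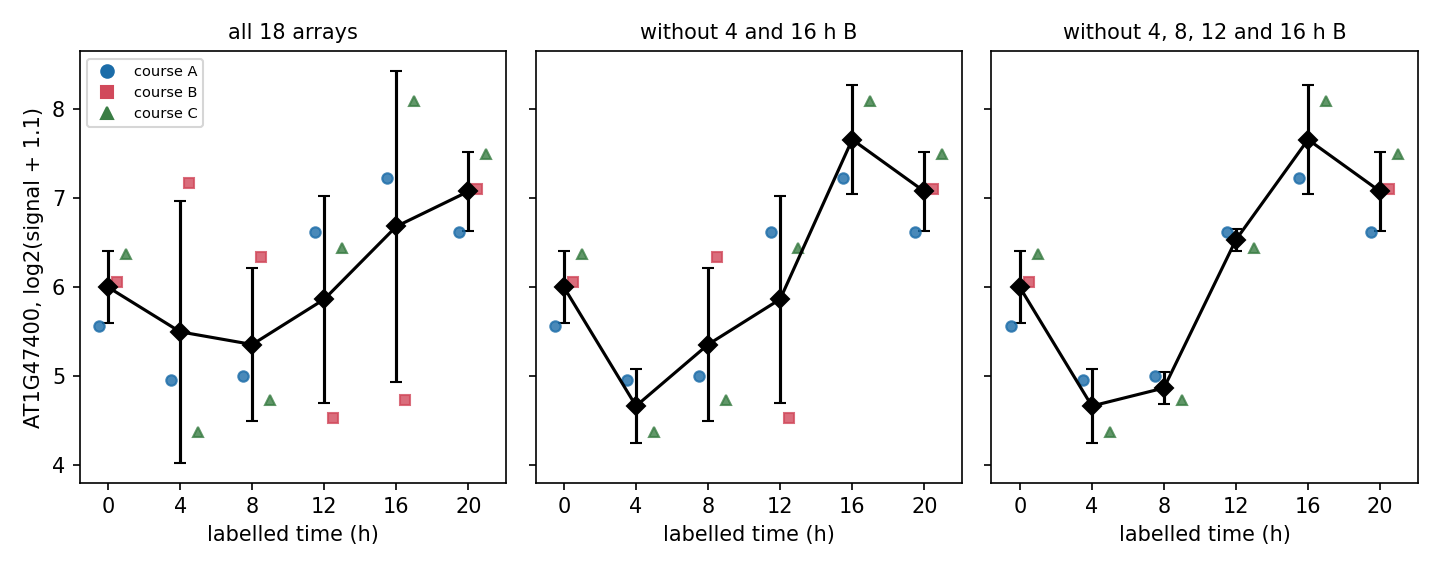
AT1G47400 as log2(signal + 1.1) against labelled time in hours, for all 18 arrays (left), without the 4 and 16 h arrays of course B (middle) and without its 4, 8, 12 and 16 h arrays (right). Diamonds are means, bars are SD over the 2 or 3 arrays of a time, and small symbols are single arrays, set slightly aside. The mean at 16 h is 6.68 on the left and 7.66 in the other panels, and that at 4 h is 5.50 on the left and 4.67 in the others.

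Set beside other transcripts, the time means of AT1G47400 had a wider range than most. With all arrays its range of 1.72 was exceeded by 5.72% of the 22746 probe sets, whose median range was 0.64. Without the 4 h and 16 h arrays of course B its range of 2.99 was exceeded by 1.17%, with a median of 0.74. Both shares describe a gene picked with its course known.

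The closest measured relatives in function come from lists of 87 other iron genes, compiled from general knowledge. Of these, 26 genes had a named probe set (27 probe sets, since AT1G74770 has 2). None of the 5 other listed peptide genes did, so AT1G47395, the gene next to AT1G47400 in the RefSeq gene order, could not be compared and its possible share in the measured signal was not tested. Also without a named probe set were the lists of iron chelation and redistribution (17 genes) and of other ferric reductase oxidases (6 genes). Change over the 6 times was tested with limma's moderated F test over 22746 probe sets, of which 6.53% were called at an adjusted p below 0.05. Of the 27 iron probe sets 1 was called, bHLH121, which is 3.7%, and 5 had an unadjusted p below 0.05, as did 3621 of all 22746. The median range of the time means was 0.87 for the iron probe sets and 0.64 for all.

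Among the regulators, all 4 factors of subgroup IVc were measured. bHLH104 was higher at 20 h than at 8 h. Its signals in courses A, B and C were 208.9, 205.9 and 200.1 at 20 h and 134.4, 137.3 and 132.8 at 8 h. The courses lay close together at both times and the groups did not overlap, and their log2 means differed by 0.60 ± 0.15 (SE, adjusted p = 0.0384 in limma), where 3.26% of all probe sets were called for 20 h against 8 h. This call was lost in 12 of 30 alternative settings, with adjusted p between 0.0134 and 0.501 over all of them. Those 12 were the 3 fits without course A, B or C, the 6 that left out an 8 h or 20 h array, that without the 0 h array of course B, equal array medians (0.0914) and no intensity trend (0.0933). Over all 6 times bHLH104 was not called with all arrays (adjusted p = 0.0956), but its adjusted p was 0.0327 with the courses as a replicate block, 0.0319 with 16 arrays and 0.0446 with 14.

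The other subgroup IVc factors were not called in the F test with all arrays. bHLH34 had mean signals of 84.7 ± 4.0, 80.3 ± 25.2, 48.0 ± 12.3, 59.1 ± 5.3, 68.7 ± 12.1 and 70.0 ± 3.0 at 0, 4, 8, 12, 16 and 20 h (SD, n = 3 each, adjusted p = 0.216, and 0.0203 with 16 arrays). Its highest mean was thus at 0 h, unlike that of AT1G47400. ILR3 and bHLH115 were steadier, with ranges of 0.15 and 0.19 between time means on the log2 scale (adjusted p = 1.0 for both), and all their arrays read between 299.6 and 473.3 and between 144.0 and 239.7.

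bHLH121, the partner of these factors, read 163.1, 157.0 and 152.8 at 20 h and 219.4, 142.6 and 194.0 at 0 h in courses A, B and C. All other arrays read between 56.3 and 135.5, so both times lay above every other. It changed over the 6 times (range 1.47, limma F test, adjusted p = 0.00313). At 12 h it read 61.0, 80.6 and 56.6 and was lower than at 0 h, with a log2 difference of -1.47 ± 0.26 (SE, limma adjusted p = 0.00131). It was higher at 20 h than at 8 h (68.4, 61.8 and 71.1) by 1.22 ± 0.26 (limma adjusted p = 0.0143). Over the 6 times it kept its call in 28 of 30 settings and lost it without course A (0.419) and without course C (0.170). Against 0 h, the call at 12 h was lost in the same 2 settings (0.125 and 0.0542). That at 20 h against 8 h was lost there too (0.401 and 0.143), and without the 8 h array of course B (0.0532) or the 20 h array of course A (0.0664).

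Downstream of these factors, PYE, a bHLH regulator induced by iron deficiency, was high and low on much the same arrays as AT1G47400. Its signals were 63.5, 65.5, 52.0, 68.3, 79.9 and 76.6 at the 6 times in course A, and 63.5, 43.6, 49.1, 79.9, 108.8 and 80.7 in course C. In course B they were 49.0, 88.7, 57.4, 35.0, 32.1 and 69.1, with the maximum at 4 h and the minimum at 16 h. The order of the arrays in each course resembled that of AT1G47400, although the differences were smaller. PYE had no call over the 6 times with all arrays (adjusted p = 1.0) nor with 14 arrays (0.103). bHLH101, the measured factor of subgroup Ib, read between 1.0 and 9.6 and could not be followed at that level (adjusted p = 0.551).

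The widest course among the iron genes was that of AT5G05250, which the tables used here leave without a name and which was listed among other iron-responsive genes. Its signals were 39.5, 35.1, 16.2, 90.8, 136.7 and 56.8 in course A and 40.8, 13.5, 5.7, 46.0, 99.5 and 136.0 in course C. In course B they were 49.2, 114.0, 62.1, 21.7, 23.2 and 138.7. As for AT1G47400, course B was the highest of the 3 at 4 and 8 h and the lowest at 12 and 16 h. The range of its time means was 2.41 on the log2 scale without a call for all arrays (adjusted p = 0.570), and the adjusted p was 0.0832 with 16 arrays and 0.00264 with 14. AT5G05250 was called over the 6 times in only 2 of 30 alternative settings, that with 14 arrays among them. In the fit with 14 arrays it was higher at 16 h than at 4 h by 2.36 ± 0.55 (SE, adjusted p = 0.0265, where 4.42% of probe sets were called) and higher at 20 h than at 8 h by 3.25 ± 0.50 (limma adjusted p = 0.00135, where 6.37% were called). With all arrays these adjusted p were 1.0 and 0.144. In the fit with 14 arrays, 4, 8, 12 and 16 h had 2 arrays each. The 8 h signals of AT5G05250 were then 16.2 and 5.7, and it was not judged whether these lay above background.

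**Figure D3:**
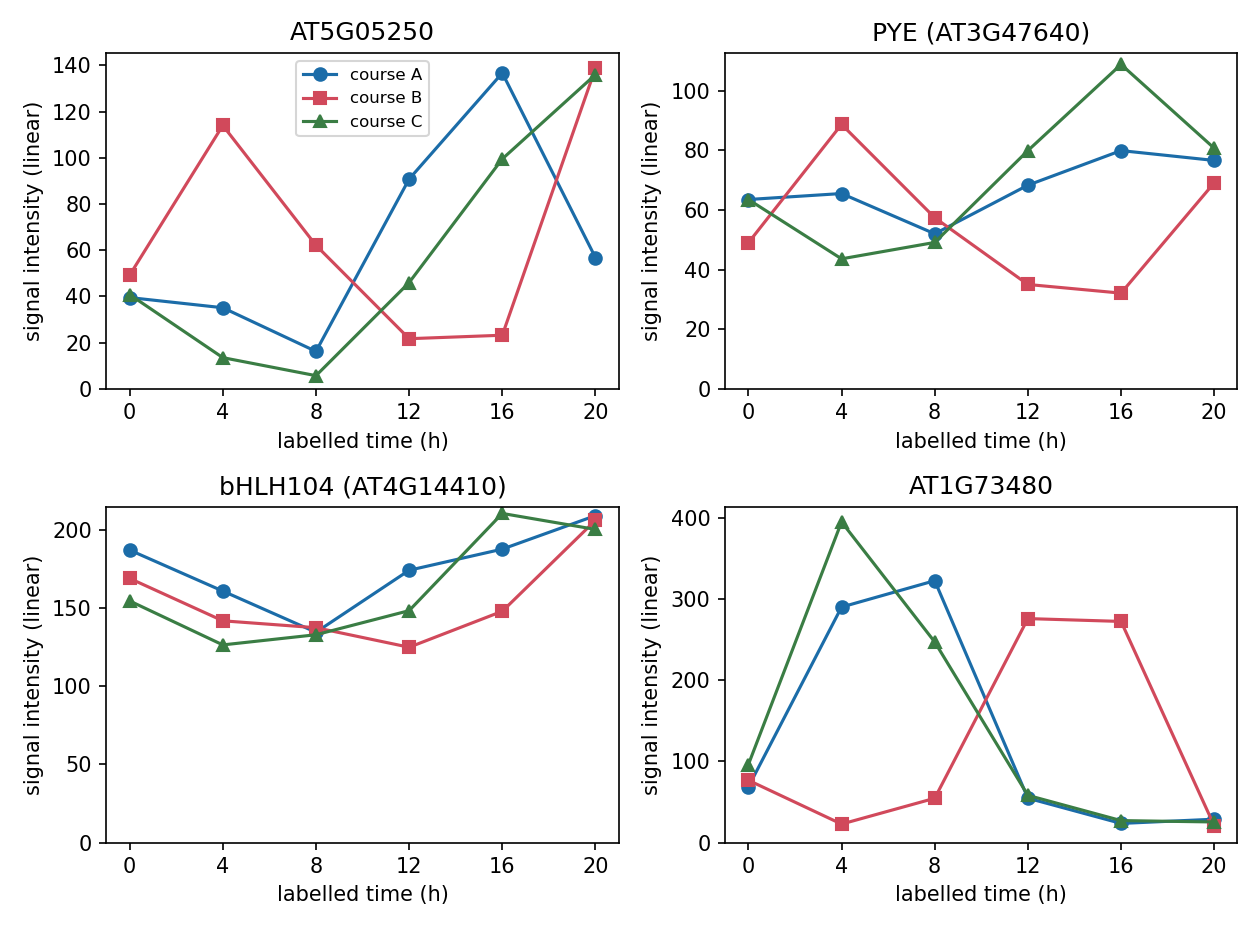
Signal intensity (linear scale) against labelled time in hours for AT5G05250, PYE, bHLH104 and AT1G73480, with 1 point per array and a line per course. In AT5G05250 and PYE, course B is high at 4 h (114.0 and 88.7) where A and C are high at 16 h, and AT1G73480 runs the opposite way, with 272.5 at 16 h in course B and 23.6 and 27.1 in A and C.

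Of the other iron genes, AT2G30160, listed under iron import of organelles, was lower at 12 h (81.9, 79.4 and 83.0 in courses A, B and C) than at 0 h (176.4, 168.8 and 104.0), with a log2 difference of -0.83 ± 0.25 (SE, limma adjusted p = 0.0436). It and bHLH121 were the 2 of 27 iron probe sets called between these times with all arrays, both downward. Of all probe sets 10.9% were called. With 14 arrays the calls were bHLH121, downward, and AT1G28680, upward (limma adjusted p = 0.0482), where 2872 of all 22746 were called. The call of AT2G30160 was lost in 14 of 30 settings (adjusted p 0.00348 to 0.350). These were quantile normalization, equal medians, no offset, no trend, the 14 arrays, the fits without course A or B, and those without the 0 h array of course A or B, the 4 h array of course A, any 12 h array or the 20 h array of course B. With the replicate block it was also called over the 6 times (adjusted p = 0.0119), and the block gave 3 iron calls, bHLH121, bHLH104 and AT2G30160, where 11.3% of all probe sets were called. Between 20 h and 8 h the 2 calls with all arrays were bHLH104 and bHLH121, both upward, where 3.26% of probe sets were called. With 16 arrays bHLH104, bHLH121 and AT5G05250 were called upward and AT1G07030 downward, where 1283 of all 22746 were called. With 14 arrays the calls were bHLH104, bHLH121, bHLH34 and AT5G05250, all upward, where 6.37% were called. Between 16 h and 4 h no probe set was called by limma with all arrays (0%, with 391 at an unadjusted p below 0.05, of which bHLH104 was the only iron gene). With 16 arrays 3.29% of all probe sets were called between these times and 0 of the 27. At an unadjusted p below 0.05 there were 6 of the 27, and 3078 of all 22746.

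Without the 4 h and 16 h arrays of course B, 4 of the 27 iron probe sets were called over the 6 times, where 12% of all probe sets were. These were bHLH121, bHLH104, bHLH34 and AT1G07030, which is listed with AT2G30160 and ran against AT1G47400 (28.2 ± 4.7 at 20 h and 56.4 ± 5.7 at 8 h, SD, n = 3 each). With 14 arrays the 4 calls were bHLH121, bHLH104, bHLH34 and AT5G05250, where 12.8% of all probe sets were called. Both shares (14.8% of the 27) are near that over all probe sets. The genes listed under storage and under root uptake gave no call over the 6 times in any of these fits. Of the storage list, AT3G43630 and AT3G43660 read between 1.7 and 21.6 and between 1.5 and 17.0. Of the list of root uptake and coumarin secretion, AT3G12900 read between 4.8 and 32.8, AT3G13610 between 0.6 and 3.4 and AT1G28680 between 54.9 and 127.9. The iron-sulphur cluster genes HCF101, ISU1 and CPNIFS had ranges of only 0.07, 0.26 and 0.22 on the log2 scale (adjusted p 0.957 to 1.0).

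Likeness to AT1G47400 was described by Pearson's r of log2 values over the 18 arrays, without a test, since these arrays share courses and times. Across the 12318 probe sets whose highest time mean reached 37.1, the median signal of all probe sets, r had a median of 0.02 and lay between -0.60 and 0.63 for the middle 90%. Of the 14 iron probe sets in that range of signal, AT5G05250 (0.89), PYE (0.86) and bHLH104 (0.73) lay above its upper end and AT1G07030 (-0.68) below its lower end. With 14 arrays their r was 0.89, 0.86, 0.83 and -0.74. The remaining 10 lay between -0.13 (HCF101) and 0.52 (bHLH115), and the median over the 14 was 0.31. Each array was also expressed as its deviation from the mean of its labelled time. The r with AT1G47400 was then 0.88 for AT5G05250, 0.89 for PYE, 0.60 for bHLH104 and -0.51 for AT1G07030. These deviations included the arrays of course B that correlated most with another time of courses A and C. They can therefore carry the change over the day itself, and these r do not separate it from differences between courses. No such r was taken over the 14 arrays.

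**Figure D4:**
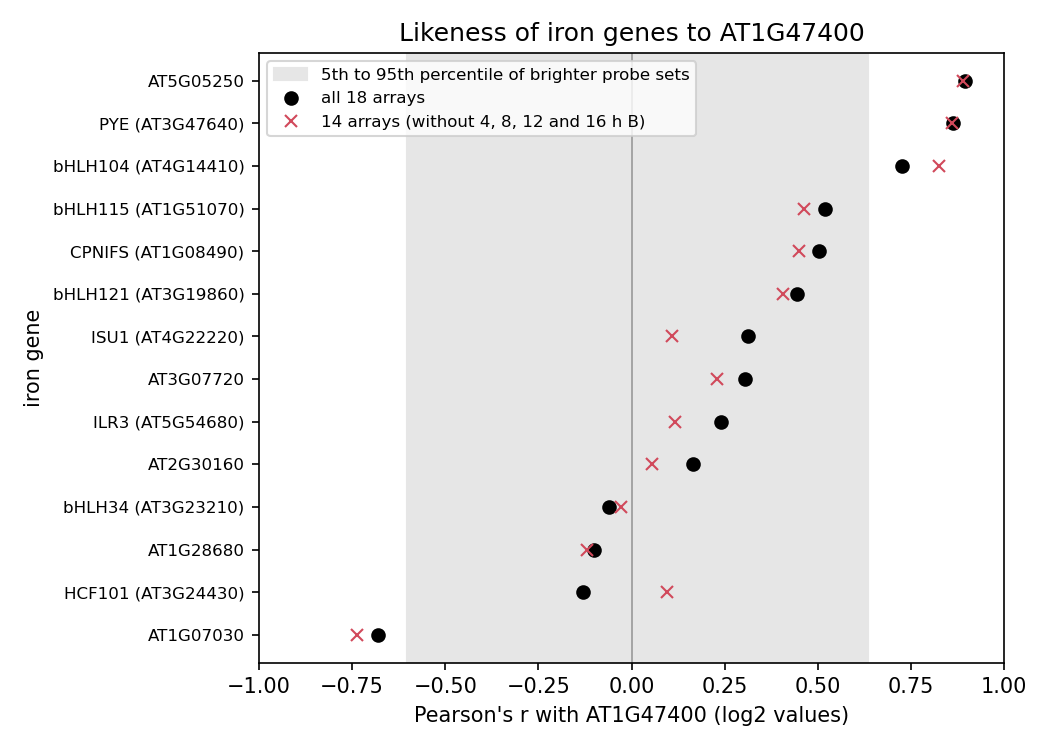
Pearson's r with AT1G47400 (horizontal axis) for the 14 iron probe sets with enough signal, over all 18 arrays (dots) and over 14 arrays (crosses). The grey band spans the middle 90% of r over the 18 arrays for 12318 probe sets, and no such band was drawn for 14 arrays. The dots of AT5G05250, PYE, bHLH104 and AT1G07030 lie outside it.

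The 10 named genes most like AT1G47400 had r between 0.87 and 0.91. These were AT1G32470 (0.91), AT3G62370, FMO (AT1G12200, a flavin monooxygenase), AT5G52540, AT5G05250, AT4G23470, AT1G78450, AT5G03905, AT5G64130 and AT5G52780, and PYE came next at 0.86. AT5G05250 was the only gene of the iron lists among the 10. A further 15 probe sets without a single named gene reached the same r. Most of these courses were shallower than that of AT1G47400. For AT1G32470 the mean signal was 2223 ± 152 at 20 h and 1566 ± 274 at 8 h (SD, n = 3 each), and of the 10 genes only AT5G05250 (2.41) and AT1G78450 (1.37) had a range above 1 on the log2 scale. AT1G78450 read 86.8, 93.1 and 84.0 at 20 h in the 3 courses, against 33.8, 53.6 and 20.4 at 8 h, without overlap. Its 16 h signals were 85.5, 29.2 and 110.9, and its 4 h signals were 32.6, 99.2 and 16.4, so course B was again on the other side. Spearman's rho gave 6 of the same 10 genes, and the 16 arrays gave 7.

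The 5 named genes with the lowest r were AT1G73480 (r = -0.95), AT5G42250 (-0.93), AT1G21500 (-0.90), AT4G27700 and AT2G29360 (both -0.88), and 7 probe sets without a single named gene had an r as low. AT1G73480 read 23.6, 272.5 and 27.1 at 16 h and 290.2, 22.8 and 395.1 at 4 h in courses A, B and C. At 20 h it was low in all courses (28.8, 20.8 and 25.4), where AT1G47400 was high. AT5G42250 likewise read 16.2, 108.9 and 2.2 at 16 h and 96.4, 11.8 and 123.5 at 4 h. With 16 arrays 4 of these 5 were again among the 5 named genes with the lowest r, and with Spearman's rho 3 were.

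The nearest measured genes on the chromosome had r between -0.28 and 0.12. The nearest genes with a named probe set in the RefSeq order were AT1G47380 and AT1G47370 on one side and AT1G47410 and the pseudogene AT1G47465 on the other. In that order, 3, 4, 5 and 12 genes lay between them and AT1G47400, so the directly adjacent genes were not measured. The r of the named genes with AT1G47400 was -0.28, 0.12, 0.01 and -0.01. AT1G47380 read between 43.5 and 72.1 and AT1G47410 between 24.1 and 52.0, while AT1G47370 and AT1G47465 read at most 16.7 and 19.4, with medians of 2.25 and 3.85. None was called over the 6 times (limma F test, adjusted p 0.383 to 1.0).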

How the data were processed

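The deposited values are linear MAS5 intensities, with 1 for each probe set on each array. The submitters' processing notes name MAS5 without a version. The deposited arrays share 1 scale: leaving out the top and bottom 2% of values, each array's mean was 100. No detection calls were used, so no value could be judged against background. No pair of arrays was identical, and the number of arrays limits precision.

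Times and courses come from the sample titles. Intensities were analysed as log2(value + 1.1), with 1.1 the 10th percentile of all values, so log2 differences of dim probe sets are understated. The 64 control probe sets were left out. limma 3.58.1 in R 4.3.3 was fitted to all 18 arrays (12 residual degrees of freedom, eBayes with intensity trend, Benjamini-Hochberg adjustment over 22746 probe sets, calls below 0.05) and tested on simulated data. Probe sets were named through the platform annotation and RefSeq's TAIR10.1 gene table, which matched 13436 of 13513 single-gene probe sets.

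AT1G47400 and the gene lists were chosen with earlier results of these data known. Named genes were AT1G47400, the listed iron genes, the 10 single-gene probe sets with the highest and the 5 with the lowest r, chromosomal neighbours and markers. The course B arrays were singled out after their values were seen.

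The letters pair arrays because the courses were grown separately, per the series' design text. Deviations from time means correlated by 0.174, 0.161 and 0.328 on average within courses A, B and C, and by -0.109 between them (lowest within a course -0.277, in course B). The deviations of a time sum to 0, so positive values within courses by themselves make that between courses negative. The value between courses is therefore no separate evidence of pairing. Alternatives were other scalings, offsets (7.1 or none), a filter at the 40th percentile, no trend, the block and leaving out arrays.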

Additional observations from a re-analysis of the deposited data

How the results depend on the processing

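The difference of AT1G47400 between 20 h and 8 h, 1.72 on the log2 scale, lay between 1.20 and 2.21 over 30 alternative settings. Leaving out a course or an array gave the same limits. These 2 times were taken as those of its highest and lowest log2 mean. Leaving out arrays could not turn the sign, since every 20 h array lay above every 8 h array. Settings that left the 8 h and 20 h values as they were, such as the block or no trend, gave 1.72 again. The difference of AT1G47400 between 16 h and 4 h was 1.18 with all arrays. It was 2.99 without course B and without its arrays of these times, and -0.09 without course C. Other settings gave 0.48 to 2.16. Its difference between 12 h and 0 h, -0.13, ranged from -0.73 to 0.56.

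With the courses as a replicate block, the counts of calls were 2565 over the 6 times (1486 without the block), 3 for the iron genes (1 without), 3888 for 12 h against 0 h (2473) and 1560 for 20 h against 8 h (742). Without the 4 h and 16 h arrays of course B they were 2734 over the 6 times, 4 for the iron genes, 749 for 16 h against 4 h (0 with all arrays) and 1283 for 20 h against 8 h. Without its 4, 8, 12 and 16 h arrays they were 2910, 4, 1005 and 1450. Without an intensity trend 447 were called for 20 h against 8 h. Leaving out 1 course or 1 array gave 172 to 2087 over the 6 times, 0 to 3 for the iron genes, 557 to 2729 for 12 h against 0 h, 0 to 843 for 16 h against 4 h and 47 to 965 for 20 h against 8 h. Counts moved by over 1.5 times in these fits. Over the 6 times they were 172 without course A, 301 without C, and 965 and 971 without the 0 h array of A or B. For the iron genes they were 0 without A or C, and 2 without B (2087 over all 22746 probe sets) or its 4 h array (1918 over all). Without the 16 h array of B they were 3 for the iron genes and 1892 over all probe sets. For 12 h against 0 h they were 557 without A and 1090 without C, and for 16 h against 4 h 843 without B. For 20 h against 8 h they were 47 without A, 104 without C, 407 and 352 without the 8 h array of A or C, and 299, 484 and 448 without the 20 h array of A, B or C. The cause was not tested.

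Whether a signal was above background was not judged. Of the 27 iron probe sets, 13 had no time mean as high as 37.1.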
